A study of Mus musculus with 12 samples.

Results

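The 10 genes described here are the inflammatory cytokine genes Tnf, Il6 and Il10, the effector enzyme genes Nos2 and Ptgs2, and the NF-kB genes Nfkbia, Nfkbiz, Tnfaip3, Rel and Relb. The rows were taken by gene name. They were read in 12 libraries of mouse bone-marrow derived macrophages, among 24728 genes in the count table. A row was found for 9 of the 10, and Il6 was not analysed here. The test across all genes covered 13414 genes, among them 8 of the 10, all except Nos2, whose counts were too low, and Il6.

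Sorted dTomato+ macrophages came from ex vivo assays with dissociated mouse brain tumor. The 4 groups had 3 libraries each, named Full Tumor, Tumor without Myelin, Myelin Alone and Control by the treatment labels. The 3 libraries of a group carried the mn numbers 957, 958 and 016. What this number stands for is not stated, nor what the Control cells received, how long the exposure lasted or which of the tumor models of the series, PDG-Ink4a or PDG-p53, gave the tumor material (in both, Nestin-positive progenitors carry enforced PDGFB, with Ink4a/Arf lost in PDG-Ink4a and p53 knocked down in PDG-p53). The age, sex and strain of the mice are not given for these libraries either. Nothing states that the 3 libraries of a group came from separate animals, so p-values reflect only how far these libraries vary, possibly for technical reasons.

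NF-kB is a family of transcription factors held inactive in the cytoplasm by inhibitor proteins and released when receptors such as those for microbial products or for TNF are engaged. In macrophages it switches on cytokine genes together with genes for its own inhibitors, so the response is self-limiting. Transcripts of the inhibitors are therefore often read beside those of the cytokines.

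The libraries held 17071673 to 21689624 counts. A count of 0 allows up to 3 counts, or 0.138 to 0.176 CPM (counts scaled to library size, with TMM factors) depending on the library. This limit covers counting error only. Macrophage markers, among them Adgre1, Csf1r and Cd68, summed to 15349 to 20297 CPM and were detected for 10 of 10 genes. Of 8 lymphocyte markers 4 had a row, and they summed to 0.285 to 2.80 CPM. Neutrophil markers were higher, at 15.8 to 90.6 CPM in Full Tumor, 10.3 to 114 in Tumor without Myelin, 23.5 to 132 in Myelin Alone and 39.8 to 266 in Control, and oligodendrocyte markers, with 5 of 8 in the table, summed to 111 to 161 CPM. Their part in the results was not tested. In these bulk samples fewer cells of a type and less RNA per cell cannot be told apart.

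Start-site sequences of the family, from the RefSeq promoter table on GRCm38.p6, are shown because several of these genes are known to carry sites for NF-kB near their starts. The table had an entry for 6 of the 10 genes. Capitals mark matches to the 10-base kappa B consensus of the NF-kB family, searched on both strands within the 250 bases before the RefSeq start. A match was present for Nfkbia, Tnfaip3, Rel and Il6 (for Tnfaip3 at 1 of its 2 listed starts), and these letters were not in the windows of Tnf and Ptgs2. Of 32851 promoters scanned in the same way, 7.25% held a match. The windows printed, each read 5′ to 3′ on the minus strand, are chr12:55492648-55492897, chr10:19015411-19015660 and chr11:23770970-23771219.
Nfkbia: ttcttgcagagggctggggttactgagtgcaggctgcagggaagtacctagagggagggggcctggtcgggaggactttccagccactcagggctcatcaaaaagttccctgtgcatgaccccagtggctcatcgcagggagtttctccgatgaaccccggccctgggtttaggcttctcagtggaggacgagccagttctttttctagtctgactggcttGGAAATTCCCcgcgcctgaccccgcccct
Tnfaip3: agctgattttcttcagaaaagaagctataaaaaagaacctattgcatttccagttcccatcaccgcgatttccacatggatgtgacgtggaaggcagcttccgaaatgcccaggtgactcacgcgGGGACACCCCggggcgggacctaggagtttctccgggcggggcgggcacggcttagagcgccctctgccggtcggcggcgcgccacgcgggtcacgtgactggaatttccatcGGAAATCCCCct
Rel: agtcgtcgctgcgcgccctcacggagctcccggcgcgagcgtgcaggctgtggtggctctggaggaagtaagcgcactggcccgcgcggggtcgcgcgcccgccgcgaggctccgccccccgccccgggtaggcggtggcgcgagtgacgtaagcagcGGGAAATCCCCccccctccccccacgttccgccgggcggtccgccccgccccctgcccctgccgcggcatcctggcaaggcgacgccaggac
The match of Nfkbia begins at position −29 relative to the RefSeq start, and those of Tnfaip3 at −125 and −12. By the gene coordinates given for the counts, Tnfaip3 reaches to 19015657. Nearly all of its window, with both matches, thus lies within that gene rather than before it. In Rel a pair of overlapping matches begins at −92 and −91. A match describes the letters and does not show that a factor binds there.

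By the median over the 12 libraries the inhibitor gene Nfkbia was the most abundant of the 9 genes per length and the effector enzymes were the least. Per kilobase of exon this median was 121 RPKM for Nfkbia and 26.9 RPKM for Tnf. Rel, Relb, Il10 and Tnfaip3 had median levels of 5.95, 5.78, 5.30 and 5.00 RPKM, Nfkbiz of 0.871 RPKM and Ptgs2 of 0.137 RPKM. Exon lengths came from GENCODE M21, where all 9 genes have the coordinates of the deposited table and overlap no other annotated gene.

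**Figure D1:**
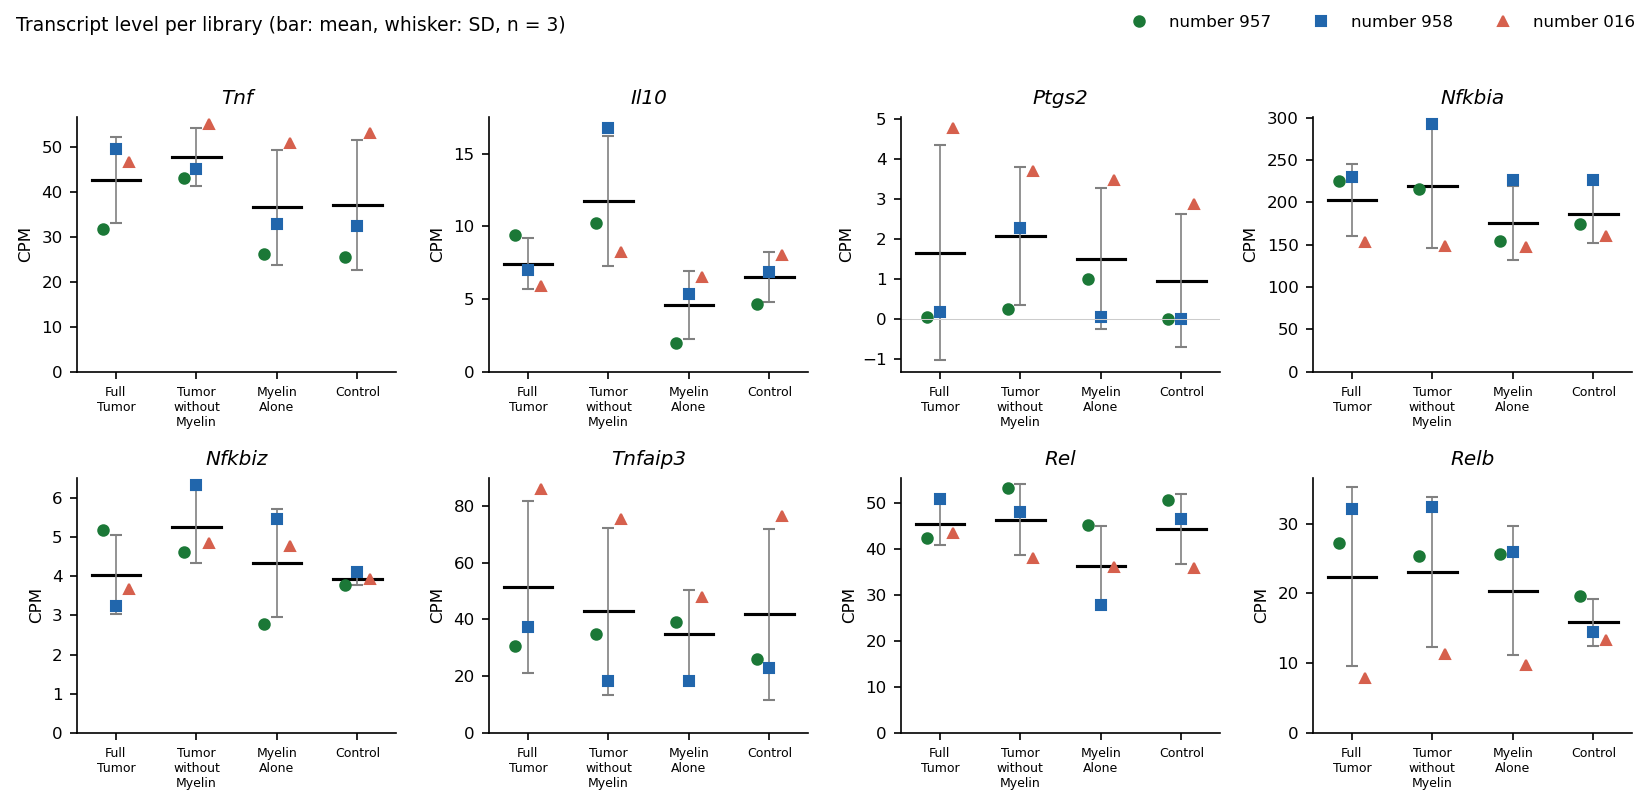
Level of the 8 tested genes in CPM (y axis) in each of the 12 libraries, by group (x axis). Points are libraries, colored by mn number, with the group mean (bar) and SD (whisker, n = 3). Libraries of number 016 (red triangles) stand above the others for Tnfaip3 and Ptgs2 and below them for Relb, and for Il10 the mean is highest in Tumor without Myelin, at 11.8 CPM, and lowest in Myelin Alone, at 4.60 CPM.

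Tnf, the gene of tumor necrosis factor (ENSMUSG00000024401, chromosome 17, 35199381 to 35202007), encodes the cytokine that both activates NF-kB and is produced in response to it. In the order of numbers 957, 958 and 016, it stood at 31.8, 49.6 and 46.8 CPM in Full Tumor libraries, at 43.2, 45.0 and 55.1 CPM in Tumor without Myelin, at 26.1, 32.8 and 50.8 CPM in Myelin Alone and at 25.5, 32.5 and 53.2 CPM in Control. The groups overlapped, and in each of the 4 groups number 957 was the lowest. Group means were 42.7 ± 9.57, 47.8 ± 6.42, 36.6 ± 12.8 and 37.0 ± 14.4 CPM in Full Tumor, Tumor without Myelin, Myelin Alone and Control (SD, n = 3).

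Il10, the gene of interleukin 10 (ENSMUSG00000016529, chromosome 1, 131019845 to 131024974), encodes a cytokine that restrains macrophage activation. It stood at 9.40, 7.02 and 5.91 CPM in Full Tumor, at 10.2, 16.8 and 8.26 CPM in Tumor without Myelin, at 1.95, 5.35 and 6.49 CPM in Myelin Alone and at 4.63, 6.86 and 8.05 CPM in Control, in the same order of numbers. The Tumor without Myelin libraries lay above all Control and Myelin Alone libraries, narrowly so in number 016, while Full Tumor overlapped with Control. Means were 7.44 ± 1.79 CPM in Full Tumor, 11.8 ± 4.47 in Tumor without Myelin, 4.60 ± 2.36 in Myelin Alone and 6.51 ± 1.73 in Control (SD, n = 3).

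Of the enzymes of classical macrophage activation, Nos2 was almost undetected, and Ptgs2 was detected mainly in number 016. Nos2, the inducible nitric oxide synthase (ENSMUSG00000020826, chromosome 11, 78920787 to 78960254), had 1 count in all, in the Full Tumor library of number 957. Its other 11 libraries were at 0. Ptgs2, the inducible cyclooxygenase that starts prostaglandin synthesis (ENSMUSG00000032487, chromosome 1, 150100031 to 150108227), had 1, 3 and 101 counts in Full Tumor, 5, 40 and 61 in Tumor without Myelin, 19, 1 and 63 in Myelin Alone and 0, 0 and 59 in Control (numbers 957, 958 and 016). Most of its 353 counts came from number 016, where all groups lay between 2.89 and 4.77 CPM. Fitted fold changes of Ptgs2 within the other numbers rest on Control libraries at 0 and depend on the prior count.

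Nfkbia encodes IkB-alpha, the inhibitor that holds NF-kB in the cytoplasm and is itself rapidly induced by it (ENSMUSG00000021025, chromosome 12, 55489410 to 55492647). It stood at 226, 230 and 154 CPM in Full Tumor, at 216, 293 and 148 CPM in Tumor without Myelin, at 154, 226 and 147 CPM in Myelin Alone and at 174, 226 and 160 CPM in Control. The groups overlapped, and number 016 was the lowest of each group. Means were 203 ± 42.7 CPM in Full Tumor, 219 ± 72.4 in Tumor without Myelin, 176 ± 43.9 in Myelin Alone and 187 ± 34.6 in Control (SD, n = 3).

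Nfkbiz encodes IkB-zeta, a nuclear cofactor that adjusts which NF-kB targets are read (ENSMUSG00000035356, chromosome 16, 55811375 to 55838899). It had 5.18, 3.25 and 3.69 CPM in Full Tumor, 4.63, 6.34 and 4.86 CPM in Tumor without Myelin, 2.79, 5.46 and 4.77 CPM in Myelin Alone and 3.78, 4.12 and 3.92 CPM in Control. Tumor without Myelin libraries all lay above the Control libraries, and the other groups overlapped with Control. Means were 4.04 ± 1.01, 5.28 ± 0.930, 4.34 ± 1.39 and 3.94 ± 0.169 CPM in Full Tumor, Tumor without Myelin, Myelin Alone and Control (SD, n = 3).

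Tnfaip3 encodes A20, a ubiquitin-editing enzyme that ends NF-kB signaling (ENSMUSG00000019850, chromosome 10, 19000910 to 19015657). It stood at 30.5, 37.5 and 86.3 CPM in Full Tumor, at 34.8, 18.3 and 75.4 CPM in Tumor without Myelin, at 39.0, 18.2 and 47.9 CPM in Myelin Alone and at 25.9, 23.0 and 76.6 CPM in Control. Number 016 was the highest in each group, and the groups overlapped. Means were 51.4 ± 30.4 CPM in Full Tumor, 42.8 ± 29.4 in Tumor without Myelin, 35.0 ± 15.3 in Myelin Alone and 41.8 ± 30.2 in Control (SD, n = 3).

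Rel and Relb encode the DNA-binding subunits c-Rel, of the canonical arm, and RelB, of the non-canonical arm. Rel (ENSMUSG00000020275, chromosome 11, 23736847 to 23770970) was at 45.6 ± 4.70 CPM in Full Tumor, 46.5 ± 7.75 in Tumor without Myelin, 36.4 ± 8.74 in Myelin Alone and 44.4 ± 7.62 in Control (SD, n = 3). Over the 12 libraries it ranged between 27.9 and 53.3 CPM, with its lowest value in Myelin Alone of number 958. Relb (ENSMUSG00000002983, chromosome 7, 19606217 to 19629438) stood at 27.2, 32.1 and 7.89 CPM in Full Tumor, at 25.3, 32.4 and 11.3 CPM in Tumor without Myelin, at 25.6, 25.9 and 9.71 CPM in Myelin Alone and at 19.6, 14.5 and 13.3 CPM in Control. In each exposed group the libraries of numbers 957 and 958 lay above all Control libraries and that of 016 below them.

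Group means ran highest in Tumor without Myelin for all of the 8 tested genes except Tnfaip3, which was highest in Full Tumor. When the 4 group means of a gene were put in order, 0 of the 3 steps between neighbors exceeded the larger of the SDs, for each of the 8 genes. These SDs include the spread between mn numbers, so they say little about differences within a number. The highest group mean was 2.56 times the lowest for Il10, 2.16 times for Ptgs2 and 1.24 to 1.47 times for the other 6.

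Full Tumor, Tumor without Myelin and Myelin Alone were each set against Control to ask which material altered these transcripts. With group as the only term, edgeR's quasi-likelihood test called 0 of the 8 genes in each of these comparisons at an adjusted p under 0.05, and none had an unadjusted p under 0.05 (0 of 8). Over all 13414 genes, 0% were called in each, and 560, 548 and 279 had an unadjusted p under 0.05, in the same order. By DESeq2 with group only there were 0 calls and 0 unadjusted p-values under 0.05 among the 8. With the mn number added as a block, edgeR called 0 of the 8, against 0.813% of all genes in Full Tumor, 0.745% in Tumor without Myelin and 0.0373% in Myelin Alone. Split by direction, these were 0.634% higher and 0.179% lower in Full Tumor, 0.559% higher and 0.186% lower in Tumor without Myelin, and 0.00745% higher and 0.0298% lower in Myelin Alone. Of the 8, 1 had an unadjusted p under 0.05 with the block, Tnf in Tumor without Myelin. Of all 13414 genes, 1272 did so in that comparison, so 1 of 8 lay near the share over all genes. The counts over all genes were 1319 in Full Tumor and 810 in Myelin Alone. DESeq2 with the block called 0 of the 8, with 3 unadjusted in Tumor without Myelin (Il10, Ptgs2 and Tnf), 1 in Myelin Alone (Ptgs2) and 0 in Full Tumor. In Myelin Alone, DESeq2 gave no adjusted p for Ptgs2 in either fit, nor for Nfkbiz with group only. These could therefore not be called there.

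The fitted changes in the tumor groups were all positive with TMM scaling, while with library totals alone Nfkbiz and Rel in Full Tumor and Tnfaip3 in Tumor without Myelin lay just below 0. With group only, 8 of the 8 log2 fold changes against Control were positive in Full Tumor, with a median of 0.20, and 8 of 8 in Tumor without Myelin, with a median of 0.39. The medians over all tested genes were 0.00 and 0.01. These comparisons share their Control libraries. For Myelin Alone 3 of 8 were positive and the median was −0.05, beside 0.01 over all genes. Each Full Tumor value was smaller than its standard error. Within number 016, log2(CPM + 1) in Full Tumor was below Control for Tnf (−0.18), Il10 (−0.39), Nfkbia (−0.06), Nfkbiz (−0.07) and Relb (−0.69). It was above Control for Ptgs2, Tnfaip3 and Rel. In Tumor without Myelin of that number, Nfkbia (−0.11), Tnfaip3 (−0.02) and Relb (−0.22) were below Control and the other genes above.

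Tnf had log2 fold changes of 0.25 ± 0.18 in Full Tumor, 0.43 ± 0.18 in Tumor without Myelin and −0.01 ± 0.18 in Myelin Alone with the block (± standard error, edgeR adjusted p = 0.732, 0.469 and 1). The 95% intervals with the block were −0.14 to 0.64, 0.04 to 0.82 and −0.40 to 0.38. Within numbers 957, 958 and 016, the log2(CPM + 1) of Tnf in Tumor without Myelin exceeded that of Control by 0.74, 0.46 and 0.05, so the difference was smallest in number 016. In Full Tumor these differences were 0.31, 0.60 and −0.18.

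Il10 had log2 fold changes of 0.26 ± 0.41 in Full Tumor, 0.85 ± 0.41 in Tumor without Myelin and −0.54 ± 0.41 in Myelin Alone with the block (edgeR adjusted p = 0.907, 0.555 and 0.960). Differences within numbers 957, 958 and 016 were 0.99, 1.18 and 0.03 for Tumor without Myelin, and −0.93, −0.31 and −0.27 for Myelin Alone, on the log2(CPM + 1) scale. The direction was thus the same in the 3 numbers in both comparisons, and the sizes differed.

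The precision differed widely among the inhibitor and subunit genes. For Nfkbia the 95% interval with the block ran from −0.16 to 0.39 in Full Tumor, from −0.08 to 0.47 in Tumor without Myelin and from −0.37 to 0.18 in Myelin Alone, so log2 changes beyond these bounds lay outside it. Rel had intervals of −0.34 to 0.45, −0.33 to 0.46 and −0.68 to 0.11 in the same order. Tnfaip3, Relb and Nfkbiz had upper bounds of 0.95, 0.90 and 0.81 in Full Tumor, so a rise of nearly that size on the log2 scale could not be told apart from none. For Ptgs2 the interval in Full Tumor, −1.82 to 3.80, was too wide to bound a change.

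**Figure D2:**
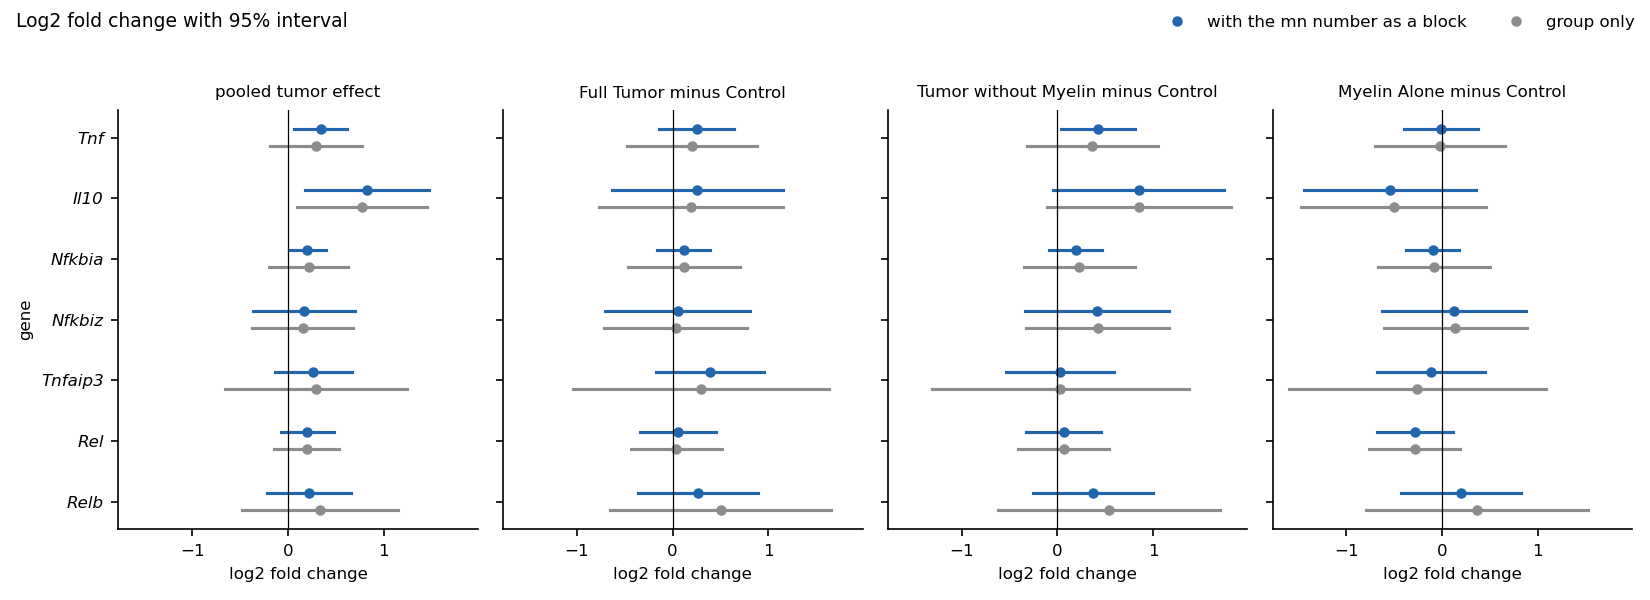
Log2 fold change (x axis) of 7 genes (y axis) in 4 comparisons, with 95% intervals, from edgeR with the mn number as a block (blue) and with group only (gray). Ptgs2 is left out for its width. In the pooled tumor comparison with the block the intervals of Tnf, Il10 and Nfkbia lie above 0, with Il10 at 0.83, and none passed adjustment over all genes.

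The pooled tumor effect sets the 6 libraries with tumor material, Full Tumor and Tumor without Myelin, against the 6 without it, Myelin Alone and Control. It asks what tumor material did regardless of myelin. Of the 8 genes, edgeR called 0 with group only, beside 0.0745% of all genes, and 0 with the block, beside 2.25% (1.63% higher and 0.626% lower). At an unadjusted p under 0.05 by edgeR there were 1 with group only (Il10) and 3 with the block (Il10, Tnf and Nfkbia). Of all 13414 genes, 775 with group only and 1702 with the block were under 0.05 unadjusted by edgeR. DESeq2 gave 0 calls among the 8 in both fits, with the same genes unadjusted (1 and 3). The log2 fold change of Il10 was 0.83 ± 0.30 with the block (95% interval 0.18 to 1.47, edgeR adjusted p = 0.242). That of Tnf was 0.34 ± 0.13 (0.07 to 0.62, edgeR adjusted p = 0.257) and that of Nfkbia 0.20 ± 0.09 (0.01 to 0.40, edgeR adjusted p = 0.368).

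In number 016 these differences were near 0. Within numbers 957, 958 and 016 the pooled tumor difference in log2(CPM + 1) was 1.41, 0.76 and −0.04 for Il10, 0.51, 0.52 and −0.03 for Tnf, and 0.43, 0.20 and −0.02 for Nfkbia. Leaving out 1 library or number in the blocked fit moved the log2 fold change of Il10 between 0.41 (without number 957) and 1.27 (without number 016), that of Tnf between 0.24 (without number 958) and 0.54 (without number 016) and that of Nfkbia between 0.087 (without number 957) and 0.32 (without number 016), and 0 of the 8 genes were called in any of these fits. With the block and library totals alone, 2 genes had an unadjusted p under 0.05 (Il10 and Tnf), and Nfkbia was not among them. Tnfaip3 was the only one of the 8 whose pooled difference was positive in all 3 numbers, at 0.03, 0.35 and 0.41.

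Full Tumor was set against Tumor without Myelin to ask what myelin added in the presence of tumor. In either edgeR fit 0 of the 8 genes were called, 0 had an unadjusted p under 0.05, and 0% of all genes were called. By DESeq2 0 of the 8 were called and 0 were under 0.05 unadjusted, in both fits, and over all genes it called 5 with group only, 15 with the block. Of the log2 fold changes with group only 7 of 8 were negative (median −0.13, beside 0.00 over all genes). Il10 was lower with myelin in the 3 numbers, by 0.11, 1.15 and 0.42 in log2(CPM + 1), with a fitted log2 fold change of −0.60 ± 0.41 with the block (edgeR adjusted p = 1.00). Il10 was thus lower in both comparisons where myelin was added, and neither passed. Leaving out 1 library or number in the blocked fit moved these log2 changes of Il10 between −1.14 (without Full Tumor of number 957) and −0.26 (without number 958) in Full Tumor against Tumor without Myelin, and between −1.003 (without Myelin Alone of number 016) and −0.17 (without Myelin Alone of number 957) in Myelin Alone against Control. The interaction, which tests whether the effect of myelin differs with and without tumor material, called 0 of the 8 and 0% of all genes with group only and with the block (0 of the 8 unadjusted), and by DESeq2 there were 0 calls, with 0 unadjusted with group only and 1 with the block (Ptgs2).

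For 5 of the 8 genes most of the variance lay between mn numbers. Their share of the variance of log2(CPM + 1) was 80.2% for Tnfaip3, 75.7% for Ptgs2, 75.5% for Relb, 74.4% for Nfkbia and 60.7% for Tnf, against 6.36%, 8.13%, 5.55%, 11.9% and 22.3% for the group. For Il10 the order was reversed, at 10.5% for the number and 55.1% for the group, and for Nfkbiz it was 8.02% and 27.8%. Rel had 25.2% between numbers and 32.6% between groups. With 4 groups and 3 numbers, spread alone gives each a share, the larger to the group, and this was not subtracted. A test of the number in the blocked fit, chosen after the values were seen, called 5 of the 8 genes, beside 34.9% of all genes. It tested for any difference among the 3 numbers, so its p-values belong to no single pair of them. For Tnfaip3, Ptgs2, Tnf, Relb and Nfkbia it gave edgeR adjusted p = 0.000869, 0.0215, 0.00958, 0.00530 and 0.00257. Tnfaip3 was higher in 016 than in 957 by 1.10 on the log2 scale, Ptgs2 by 4.25 and Tnf by 0.74. Relb and Nfkbia were lower in 016 than in 957, with log2 differences of −1.18 and −0.32. In the same order of the 5 genes, the log2 differences of 016 minus 958 were 1.59, 3.80, 0.39, −1.26 and −0.67. The inhibitor genes Tnfaip3 and Nfkbia thus stood in opposite order across the numbers. Monocyte markers summed to 88.8 to 131 CPM in number 016 and to 16.1 to 63.5 CPM in the others. Mast cell and basophil markers, of which 2 of 4 had a row, summed to 7.00 to 15.7 CPM in number 016 and to 0 to 1.83 CPM in the others, and neutrophil markers to 15.8 to 266 CPM in number 016 and to 10.3 to 114 CPM in the others. The part of these lists in the differences was not tested.

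Once the mean of each number was subtracted, Il10 and Nfkbia moved together across the 12 libraries, with Pearson r = 0.950 and Spearman rho = 0.881. Group means were not subtracted, so group differences that both genes share are part of these values and of the test below. An exact two-sided permutation test that shuffled libraries within numbers (13824 arrangements) gave p = 0.00897 for r and 0.0208 for rho. Adjusted over the 28 pairs of the 8 genes these were 0.244 and 0.167, so the relation did not pass the correction. Without the libraries farthest from the median of Il10, Tumor without Myelin of number 958 and Myelin Alone of number 957, r was 0.893. The pair was singled out after its value was seen. Nfkbiz and Tnfaip3 had the most negative value of the 28 pairs, r = −0.699 and rho = −0.720 (exact permutation p = 0.0214 and 0.0122, adjusted 0.244 and 0.167), which became −0.448 without Full Tumor of number 958 and Myelin Alone of number 957.

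**Figure D3:**
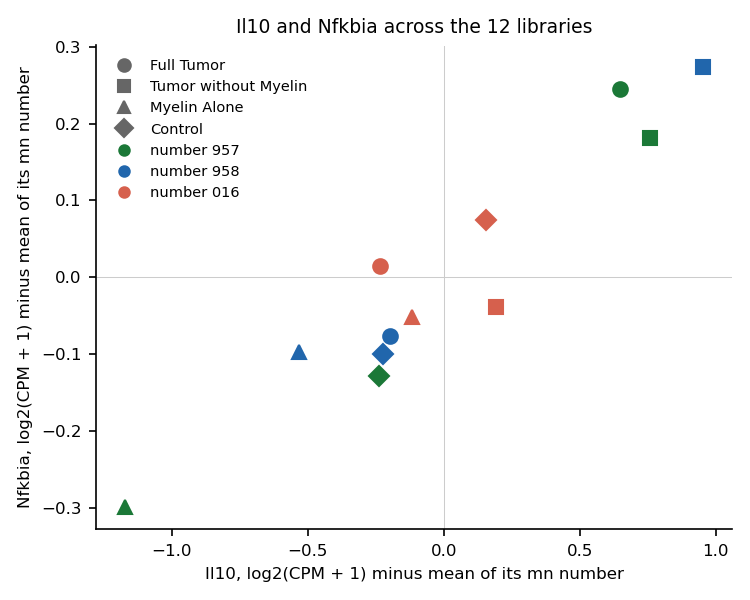
Il10 (x axis) against Nfkbia (y axis) in the 12 libraries, each as log2(CPM + 1) minus the mean of its mn number. Shapes mark groups and colors mark numbers. Both genes are highest in Tumor without Myelin of number 958 and lowest in Myelin Alone of number 957, and the 4 libraries of number 016 lie near the center (r = 0.950 over all 12).

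The genes outside the family whose pattern was most like that of a member were found by the same measure, Pearson's r over 12 libraries after the mean of each number was subtracted. They are given as a description, and the libraries share groups and numbers. For Tnf they were Ifi214 (r = 0.950), Sp100 (0.931), BC147527 (0.928), Eif2ak2 (0.924) and Igtp (0.924), of which Ifi214 averaged 0.483 CPM. For Il10 they were Phyh (0.962), 9130008F23Rik (0.936), Tcf4 (0.935), Helz2 (0.919) and Cd44 (0.913). For Nfkbiz they were Metrn (0.942), Dcp2 (0.922), Gnas (0.900), Clic1 (0.886) and Gm37298 (0.879), of which Gnas and Gm37298 averaged 0.850 and 0.349 CPM.

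Other genes of the pathway were read from 6 lists of 125 genes, covering subunits and kinases, upstream signaling, feedback, cytokines and receptors, nitric oxide and prostaglandin genes, and further known targets. Of these 117 were tested. With group only edgeR called 0 of the 117 in each of the 6 comparisons. With the block it called 5 higher and 1 lower in the pooled tumor comparison, 3 higher in Tumor without Myelin against Control and 1 higher in Full Tumor against Control, and 0 in the other 3. The 5 make 4.27% of the 117, beside 1.63% of all genes called higher, and the 3 make 2.56%, beside 0.559%. The 3 are among the 5, these comparisons share libraries, and the lists were chosen with earlier results of these data known. The shares therefore give no independent support for a rise of the pathway. The 1 in Full Tumor makes 0.855%, beside 0.634% of all genes called higher, and the 1 lower in the pooled comparison 0.855%, beside 0.626% called lower, both near the share over all genes. The pooled median over the 117 was 0.07 with the block, beside 0.00 over all genes. Leaving out 1 library or number at a time in the blocked fit moved the pooled count of called genes between 0 (without number 957) and 8 (without Control of number 016), that of Tumor without Myelin between 0 and 4 and that of Full Tumor between 0 and 5 (both highest without number 016).

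The called feedback genes were a pair of RNA-binding proteins that shorten the life of cytokine messages. Zfp36, which encodes tristetraprolin, a protein that destabilizes Tnf and other cytokine mRNAs, stood at 229, 221 and 104 CPM in Full Tumor, at 255, 279 and 102 CPM in Tumor without Myelin, at 121, 141 and 65.3 CPM in Myelin Alone and at 172, 153 and 82.5 CPM in Control. Within each number both tumor libraries lay above Myelin Alone and Control. Its log2 rise with tumor material was 0.66 ± 0.08 in the blocked fit (edgeR adjusted p = 0.0020, against 0.819 with group only). The call held without any single library and was lost without number 957 or 958 (edgeR adjusted p = 0.0744 and 0.0633).

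Zfp36l1, its paralog, stood at 53.4, 84.2 and 16.7 CPM in Full Tumor, at 61.8, 124 and 22.6 CPM in Tumor without Myelin, at 19.2, 45.8 and 8.71 CPM in Myelin Alone and at 32.5, 66.2 and 8.58 CPM in Control. It too was higher in both tumor libraries of each number. Its pooled log2 rise was 1.08 ± 0.12 in the blocked fit (edgeR adjusted p = 0.00104, against 1.00 with group only), a call lost without number 957 (0.0517) among the 15 fits that left out a library or a number. Immediate early and heat shock genes of the dissociation list summed to 568 to 883 CPM in Full Tumor, 534 to 1055 in Tumor without Myelin, 503 to 630 in Myelin Alone and 631 to 825 in Control, and microglia markers to 295 to 409, 361 to 476, 161 to 307 and 113 to 291 CPM in the same groups. The part of either list in these results was not tested.

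Among the kinases, Ikbke, which encodes IKK-epsilon, a kinase of interferon and NF-kB signaling, stood at 33.2, 36.4 and 35.8 CPM in Full Tumor, 37.2, 44.1 and 38.4 CPM in Tumor without Myelin, 30.8, 28.6 and 19.7 CPM in Myelin Alone and 17.7, 24.4 and 18.3 CPM in Control. Both tumor groups lay above Myelin Alone and Control without overlap. Its pooled log2 rise was 0.71 ± 0.12 in the blocked fit (edgeR adjusted p = 0.0126, against 0.135 with group only), and the call was lost without number 957, 958 or 016 (0.0870, 0.146 and 0.100) and kept without any single library. Ikbkg, the gene of the NEMO scaffold of the IkB kinase complex, fell by 0.38 ± 0.08 (edgeR adjusted p = 0.0364), to 138 ± 42.0 CPM in Full Tumor and 125 ± 35.8 in Tumor without Myelin, against 176 ± 40.8 in Myelin Alone and 163 ± 42.7 in Control (SD, n = 3). Of the 15 fits that left out a library or a number, 2 kept this call, those without Myelin Alone of number 957 or Control of number 016, and adjusted p ranged from 0.0283 to 0.322.

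**Figure D4:**
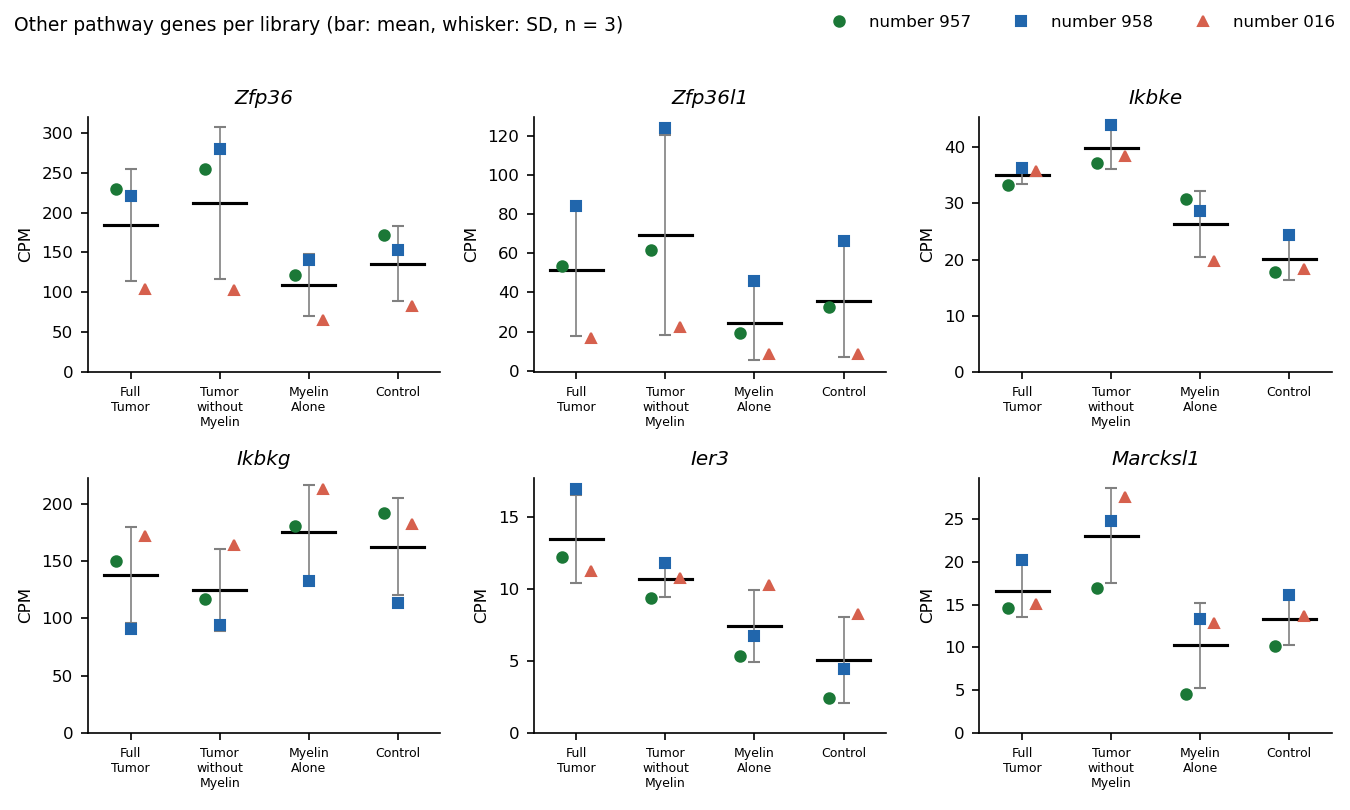
Level in CPM (y axis) of the 6 pathway genes called in the pooled tumor comparison with the block, by group (x axis). Points are libraries, colored by mn number, with group mean (bar) and SD (whisker, n = 3). Zfp36, Zfp36l1, Ikbke, Ier3 and Marcksl1 are higher in both tumor libraries of each number, and Ikbkg is lower in them.

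Of the further known targets, Ier3, an immediate early survival gene, rose by 1.05 ± 0.24 and Marcksl1, a MARCKS-like protein gene, by 0.80 ± 0.18 in the pooled comparison with the block (edgeR adjusted p = 0.0458 and 0.0424). Ier3 averaged 13.5 ± 3.06 CPM in Full Tumor, 10.7 ± 1.22 in Tumor without Myelin, 7.46 ± 2.52 in Myelin Alone and 5.05 ± 2.99 in Control (SD, n = 3). Each call held in 3 of the 15 such fits. For Ier3 these were without Control or Full Tumor of number 016 or without that number, and for Marcksl1 without Myelin Alone of number 957 or without Full Tumor or Myelin Alone of number 016, and adjusted p otherwise reached up to 0.422 and 0.223. Against Control, Zfp36, Zfp36l1 and Ikbke were the 3 genes called in Tumor without Myelin in the blocked fit, at log2 fold changes of 0.58 ± 0.12, 1.05 ± 0.16 and 0.99 ± 0.18 (edgeR adjusted p = 0.0472, 0.0149 and 0.0280), and they kept their calls in 2, 9 and 6 of the 15 fits. Those for Ikbke were the fits without any single Full Tumor or Myelin Alone library, and the 2 for Zfp36 were those without Myelin Alone of number 957 or without number 016. The 1 call in Full Tumor was the chemokine gene Ccl2, at 352 CPM in number 016 and 8.98 and 21.0 CPM in the others, against 194, 1.28 and 2.31 CPM in Control (2.21 ± 0.43, edgeR adjusted p = 0.0404). It held in 3 of the 15 fits, those without Full Tumor or Tumor without Myelin of number 016 or without that number, and adjusted p otherwise reached up to 0.427.

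The remaining subunits and receptors were not called in any of the 6 comparisons. Rela, the main activating subunit, stood at 113 ± 3.06 CPM in Full Tumor, 114 ± 8.25 in Tumor without Myelin, 109 ± 16.9 in Myelin Alone and 112 ± 9.34 in Control (SD, n = 3), with a pooled log2 fold change of 0.05 ± 0.07 with the block. Nfkb1 and Nfkb2, the precursor subunits, had pooled values of 0.09 ± 0.10 and 0.18 ± 0.17. The TNF receptor genes Tnfrsf1a and Tnfrsf1b stood at 0.16 ± 0.09 and −0.15 ± 0.06, the interleukin 10 receptor gene Il10ra at 0.51 ± 0.19 and the interleukin 6 receptor gene Il6ra at 0.06 ± 0.11 (edgeR adjusted p of 0.252 to 0.885 for these 4). Ptgs1, the constitutive cyclooxygenase, was at 23.7 ± 7.56 CPM in Full Tumor, 32.0 ± 15.1 in Tumor without Myelin, 19.8 ± 8.06 in Myelin Alone and 14.9 ± 9.09 in Control (SD, n = 3), and its pooled change of 0.72 ± 0.17 did not pass with the block (edgeR adjusted p = 0.0536). Ptges, the inducible prostaglandin E synthase, stood at −0.17 ± 0.35.

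Further regulators of the same response were followed whatever their values, and none of the 10 given here was called in any of the 6 comparisons with or without the block. The pooled log2 changes with the block were −0.04 ± 0.17 for the inhibitor Nfkbie and 0.06 ± 0.24 for the nuclear cofactor Bcl3. For the A20 partner Tnip1 the value was −0.09 ± 0.10, for the receptor-signaling inhibitor Irak3 0.07 ± 0.11 and for the MAP kinase phosphatase Dusp1 0.28 ± 0.15. The RNase gene Zc3h12a and the cytokine-signaling inhibitor Socs3 stood at 0.00 ± 0.29 and 0.04 ± 0.63. Il1b, the gene of interleukin 1 beta, was at 1.37, 0.913 and 0 CPM in Full Tumor, at 0.925, 1.49 and 0 CPM in Tumor without Myelin, at 0 in all Myelin Alone libraries and at 0.266, 0.0549 and 0 CPM in Control (numbers 957, 958 and 016), and its pooled difference did not pass (edgeR adjusted p = 0.0778 with the block, 0.468 with group only). Its levels were thus near 1 CPM in the tumor libraries of numbers 957 and 958, lower elsewhere, and 0 in number 016. Arg1, the arginase gene of alternative activation, and Il12b, an interleukin 12 subunit gene, stayed at or below 1.95 and 1.52 CPM in every library.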

How the data were processed

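Messenger RNA of 12 libraries was measured. Per the labels' protocols, libraries were made from total RNA of small numbers of sorted cells after cDNA amplification. The authors deposited raw counts per gene, whole numbers without normalization. The build is mm10, per the submitters' processing notes. The aligner, counter and strandedness were not given in the sources used here.

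Computed here were CPM (library total times the TMM factor), RPKM from exon lengths, log2 fold changes and tests. The main test was edgeR 4.0.16 (R 4.3.3, quasi-likelihood, filterByExpr, TMM) on all 12 libraries with group only. P-values were two-sided, adjusted by Benjamini-Hochberg over 13414 genes, with a threshold of 0.05. Standard errors were derived from the F statistic, and 95% intervals used the degrees of freedom of the test. The procedure was also run on simulated counts, with changes placed in Full Tumor only and larger than most of those here. That run does not gauge how well small changes are found. Deviations from group means correlated above 0.1 in 18 of 18 same-numbered pairs (r = 0.145 to 0.771 across genes), so the mn number from the labels pairs the libraries, and the fit with it as a block is given beside the main one. Alternatives were DESeq2 1.42.0, other scalings, no filter and leaving out libraries or numbers.

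Pathway genes are named where called in either fit, at most 5 per list and direction, besides 20 regulators named whatever their values. The members and lists were chosen with earlier results of these data known.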

Additional observations from a re-analysis of the deposited data

How the results depend on the processing

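No alternative called any of the 8 tested genes in any of the 6 comparisons, with 226 values of 0 beside the 6 of the fit with group only. Genes to which DESeq2 gave no adjusted p, such as Ptgs2 in Myelin Alone, counted as not called. A fit of the Full Tumor and Control libraries alone tested 7 of the 8. The mn number pairs the libraries, and the fit with the replicate block changed 0 of these counts, while over all genes it called 302 genes in the pooled tumor comparison, against 10 without it, 109 and 100 in Full Tumor and Tumor without Myelin against Control and 5 in Myelin Alone against Control, against 0 each. DESeq2 with group only called 174 genes in the pooled comparison and 43, 54 and 11 against Control, an unfiltered fit 48 in the pooled comparison and library totals alone 2. With library totals alone the log2 change of Tnfaip3 in Tumor without Myelin against Control was −0.0046 (−0.014 with the block), and in Full Tumor against Control that of Nfkbiz was −0.024 (−0.0033) and that of Rel −0.026 (−0.0045). The interaction of Nfkbia had the opposite sign with the block (0.019), with the block in DESeq2 (0.023) and with the block and library totals (0.034). Leaving out 1 library or number, with or without the block, changed the sign of further log2 changes, and their lowest and highest values follow. In Full Tumor against Control these ranges were Tnf −0.016 to 0.55, Il10 −0.27 to 0.60, Ptgs2 −3.05 to 7.94, Nfkbia −0.035 to 0.28, Nfkbiz −0.33 to 0.29, Tnfaip3 −0.30 to 1.06, Rel −0.11 to 0.20, Relb −0.15 to 0.90 and Ccl2 −2.14 to 6.13. In Tumor without Myelin against Control these ranges were Nfkbia −0.046 to 0.44, Tnfaip3 −0.66 to 0.80 and Rel −0.073 to 0.19. In Myelin Alone against Control these ranges were Tnf −0.33 to 0.32, Ptgs2 −0.86 to 7.80, Nfkbia −0.33 to 0.069, Nfkbiz −0.077 to 0.39, Tnfaip3 −0.60 to 0.50 and Relb −0.14 to 0.70. In Full Tumor against Tumor without Myelin these ranges were Tnf −0.36 to 0.0037, Ptgs2 −4.15 to 0.38, Nfkbia −0.33 to 0.16, Tnfaip3 −0.33 to 0.94, Rel −0.16 to 0.14 and Relb −0.40 to 0.36. In the pooled tumor comparison these ranges were Ptgs2 −1.29 to 4.20, Nfkbiz −0.045 to 0.29, Tnfaip3 −0.050 to 0.68 and Relb −0.024 to 0.54. In the interaction these ranges were Tnf −0.49 to 0.17, Il10 −0.62 to 0.42, Ptgs2 −9.86 to 0.55, Nfkbia −0.23 to 0.25, Tnfaip3 −0.24 to 1.21 and Relb −0.76 to 0.018. The negative value of Ccl2 came with group only, without Full Tumor of number 016. The cause was not tested. Precision rests on 3 libraries a group, and Ptgs2 and Nos2 on few or no reads.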
